A study of Mus musculus with 2 samples.

Results

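The 46 genes described here are genes switched on by interferon, together with the 4 chains of the interferon receptors, out of 32285 genes in the count matrices of 2 mouse skin melanocyte libraries. They were taken from a fixed list by symbol, and all 46 were in both matrices. By the interferon that drives each gene most in general knowledge, 23 were placed as type I-leaning, 19 as type II-leaning and 4 as receptors. Many of these genes answer to both kinds of interferon, so the classes are leanings. The first library, titled Activated McSC, held early anagen (anagen II) melanocyte stem cells (McSCs) sorted from back skin that had been depilated at 8 weeks of age, 4 days earlier, in mice carrying Dct-rtTA; tetO-H2B-GFP. The second, titled Differentiated Mc, held mature melanocytes from microdissected hair bulbs in anagen VI, from mice of the same genotype at 5 weeks of age, with no depilation named. In both, the *Dct* promoter drives the doxycycline-dependent activator that turns on nuclear GFP, both sets of mice were fed doxycycline for 4 days, and cells from 4 mice were pooled after sorting for GFP. Each condition was therefore 1 library without a replicate, and no test between conditions was possible. Age, depilation, follicle stage, dissociation (trypsin for early anagen, EDTA then collagenase and dispase for bulbs) and bead chemistry (version 3 for early anagen, version 2 for bulb) all changed with the condition and cannot be told apart from it.

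Interferons are secreted alarm proteins. Type I interferons bind the receptor made of Ifnar1 and Ifnar2 and act through a complex that holds Stat2 and Irf9 and binds a DNA element called the ISRE. Type II interferon, interferon gamma, made mostly by T cells and natural killer cells, binds Ifngr1 and Ifngr2 and acts on the GAS element and, through Irf1, on ISRE-like elements. The induced proteins block viruses, break down intracellular parasites, cut proteins into peptides for display to T cells, and damp the response itself. In skin, interferon gamma is known for its part in vitiligo, where melanocytes are lost.

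Melanocytes were kept where a barcode had at least 1 *Dct* UMI (unique molecular identifier, 1 counted RNA molecule), fewer than 3 *Krt10* plus *Krt14* UMIs, less than 5% mitochondrial UMIs, and more than 10000 UMIs in early anagen or more than 5000 in bulb. That left 2785 of 11010 barcodes in early anagen and 3734 of 4327 in bulb, with medians of 24528 and 14286.5 UMIs per cell. The libraries shared 1 barcode name and no kept cell. Of 8 melanocyte genes, *Dct* was part of the choice of cells, and each of the other 7 was at 108 CPM (UMIs of the gene per 1000000 UMIs of the library) or more in each library, while fibroblast and endothelial marker lists summed to at most 1.31 CPM. The immune list of 11 genes summed to 32.2 CPM in early anagen, where *Ptprc*, which marks all leukocytes, gave 2 UMIs in all, and to 8.32 CPM in bulb, where it gave 0. Most of the early anagen sum came from *Cd74* and *H2-Aa* (14.2 and 12.9 CPM), class II antigen genes that interferon gamma also induces, and 91 *Cd207* UMIs lay in 1 cell. A list of 10 dissociation and stress genes summed to 2451 CPM in early anagen and 1645 CPM in bulb, with *Hspa1a* at 351 and 5.06 CPM, and its part in the results was not tested.

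Promoters were read from RefSeq (GRCm38.p6) as the 250 bases before each annotated start. Of the 46 genes, 39 had an entry, and *Ifi27*, *Iigp1*, *Gbp6*, *Usp18*, *Rtp4*, *Parp14* and *C4b* had none. The ISRE core was searched as GAAANNGAAA and the GAS core as TTCNNNGAA, where N is any base, on both strands, and matches of the 2 motifs were allowed to overlap. The ISRE core lay in 16 of the 39 genes (41.0%) and in 936 of 27025 genes of the table (3.46%). The GAS core lay in 12 of 39 (30.8%) against 2197 of 27025 (8.13%). Both motifs were found in 6 genes and neither in 17. By class, the ISRE core was in 8 of 19 type I-leaning, 8 of 16 type II-leaning and 0 of 4 receptor genes, and the GAS core in 5 of 19, 6 of 16 and 1 of 4, so neither motif was kept to the class it is named for. These are letter matches in a short window, and they do not show that a factor was bound.

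The 7 windows printed next, each on the gene's own strand and ending just before its start, were chosen after the values were seen to show type I-leaning genes (*Isg15*, *Ifit3*, *Bst2*), type II-leaning genes (*Gbp7*, *Igtp*, *Irf1*) and, for contrast, a receptor without a match (*Ifnar1*). Capitals mark bases inside an ISRE or GAS core match.
Isg15: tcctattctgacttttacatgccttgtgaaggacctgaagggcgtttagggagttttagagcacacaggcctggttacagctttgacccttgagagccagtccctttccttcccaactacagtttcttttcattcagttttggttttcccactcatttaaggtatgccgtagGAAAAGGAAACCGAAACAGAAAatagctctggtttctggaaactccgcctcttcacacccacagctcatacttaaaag
Ifit3: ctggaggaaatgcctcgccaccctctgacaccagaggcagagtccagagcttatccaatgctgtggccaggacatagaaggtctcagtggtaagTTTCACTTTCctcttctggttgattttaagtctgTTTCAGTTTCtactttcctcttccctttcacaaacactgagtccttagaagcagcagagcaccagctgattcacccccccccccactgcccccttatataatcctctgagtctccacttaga
Bst2: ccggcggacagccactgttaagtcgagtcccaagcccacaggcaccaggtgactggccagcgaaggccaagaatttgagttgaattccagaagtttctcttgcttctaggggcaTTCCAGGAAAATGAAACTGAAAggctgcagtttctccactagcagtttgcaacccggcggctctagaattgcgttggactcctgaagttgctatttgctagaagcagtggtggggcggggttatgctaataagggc
Gbp7: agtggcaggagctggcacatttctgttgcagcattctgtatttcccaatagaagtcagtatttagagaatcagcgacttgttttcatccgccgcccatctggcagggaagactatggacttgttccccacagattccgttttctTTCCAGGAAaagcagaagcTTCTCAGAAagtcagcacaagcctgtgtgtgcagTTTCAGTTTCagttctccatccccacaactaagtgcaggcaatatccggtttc
Igtp: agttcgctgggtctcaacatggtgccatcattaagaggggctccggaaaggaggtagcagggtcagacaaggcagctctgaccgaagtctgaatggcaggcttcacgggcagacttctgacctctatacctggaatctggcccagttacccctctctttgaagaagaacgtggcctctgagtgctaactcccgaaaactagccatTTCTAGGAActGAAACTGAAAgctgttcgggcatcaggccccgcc
Irf1: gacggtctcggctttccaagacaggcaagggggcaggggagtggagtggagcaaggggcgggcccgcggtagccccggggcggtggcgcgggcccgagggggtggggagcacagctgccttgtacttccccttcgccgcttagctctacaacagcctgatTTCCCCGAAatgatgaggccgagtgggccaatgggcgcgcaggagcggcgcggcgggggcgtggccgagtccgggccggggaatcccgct
Ifnar1: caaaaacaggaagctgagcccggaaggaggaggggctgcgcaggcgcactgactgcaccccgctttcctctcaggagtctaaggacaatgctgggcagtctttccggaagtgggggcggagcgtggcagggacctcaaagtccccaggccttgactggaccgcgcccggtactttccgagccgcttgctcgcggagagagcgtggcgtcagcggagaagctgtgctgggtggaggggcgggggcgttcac
They lie at chr4:156200819-156201068 on the minus strand for *Isg15*, chr19:34583279-34583528 on the plus strand for *Ifit3*, chr8:71537473-71537722 on the minus strand for *Bst2*, chr3:142530086-142530335 on the plus strand for *Gbp7*, chr11:58199306-58199555 on the plus strand for *Igtp*, chr11:53769764-53770013 on the plus strand for *Irf1* and chr16:91484965-91485214 on the plus strand for *Ifnar1*. In *Isg15*, 3 overlapping ISRE cores began 78, 72 and 66 bases before the start. In *Ifit3*, 2 ISRE cores on the other strand were 156 and 122 bases before it. In *Bst2*, 1 GAS core at 136 bases ran into 2 ISRE cores at 130 and 124 bases, and in *Igtp* a GAS core at 45 bases was followed by an ISRE core at 34 bases. *Irf1* had a GAS core at 90 bases and no ISRE core, and *Gbp7* had 2 GAS cores at 106 and 87 bases and 1 ISRE core at 53.

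Interferon-stimulated genes in McSCs of early anagen far exceeded their levels in the bulb, and the receptors did not. All 46 genes had at least 20 UMIs over both libraries together, the limit set for a call. Of them, 39 were at least 2-fold lower in bulb, 0 were at least 2-fold higher and 7 lay within 2-fold. Among all 13854 genes past the same limit, 36.8% were at least 2-fold lower in bulb and 14.8% at least 2-fold higher, so lower values were common in bulb in general. The median log2 ratio of CPM, bulb over early anagen, was -3.46 over the 46 genes and -0.45 over all genes.

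**Figure D1:**
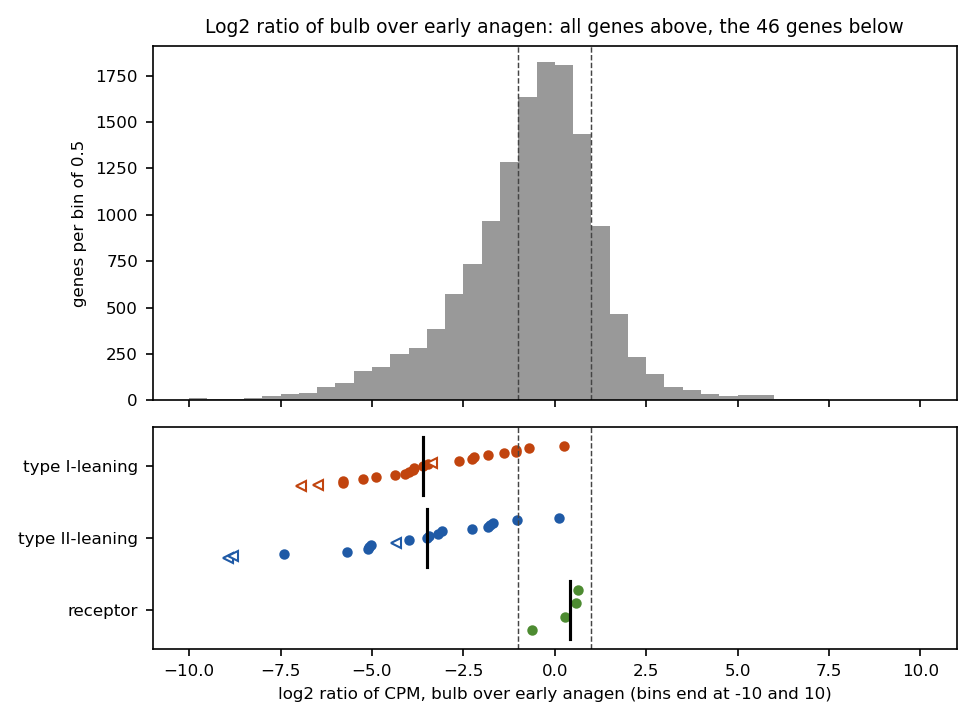
Log2 ratio of CPM, bulb over early anagen, for all genes with at least 20 UMIs (upper panel, genes per bin) and for the 46 genes by class (lower panel, 1 point a gene, black bar the class median, open triangles genes at 0 UMIs in bulb set at 3 counts). Dashed lines mark 2-fold. Medians were -3.60 for type I-leaning, -3.49 for type II-leaning and 0.43 for receptor genes.

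Type I-leaning and type II-leaning genes differed from the receptors more than from each other. Of 23 type I-leaning genes, 21 were at least 2-fold lower in bulb, with a median log2 ratio of -3.60. Their summed level was 894 CPM in early anagen and 133 CPM in bulb, a log2 ratio of -2.75 (95% interval -2.78 to -2.71). Of the 67656 UMIs of this sum in early anagen, *Bst2* gave 31838 and *Ifi27* 10585, so these 2 genes weigh heavily in it. Of 19 type II-leaning genes, 18 were lower, with a median of -3.49, and their sums were 664 and 213 CPM, a log2 ratio of -1.64 (-1.67 to -1.61). The sums of this class were held up in bulb by *Psme2*, which gave 7331 of the 11907 UMIs of the class there. The 4 receptor genes summed to 169 and 168 CPM (log2 ratio -0.01, -0.04 to 0.03). All intervals here and in the following text are exact intervals of a ratio of 2 counts, or exact binomial (Clopper-Pearson) intervals of a share. They cover counting error only, not differences between mice or between cells. Where a few cells hold many of a gene's UMIs, its interval is too narrow.

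With TMM scaling, which takes the bulk of genes as level, 36 members were at least 2-fold lower, and *Ifit1*, *Xaf1* and *Socs1* came within 2-fold (log2 ratios of -0.75, -0.75 and -0.71). The scaling also moved all other genes, and the range of the share of all genes lower over the alternatives is given at the end.

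**Figure D2:**
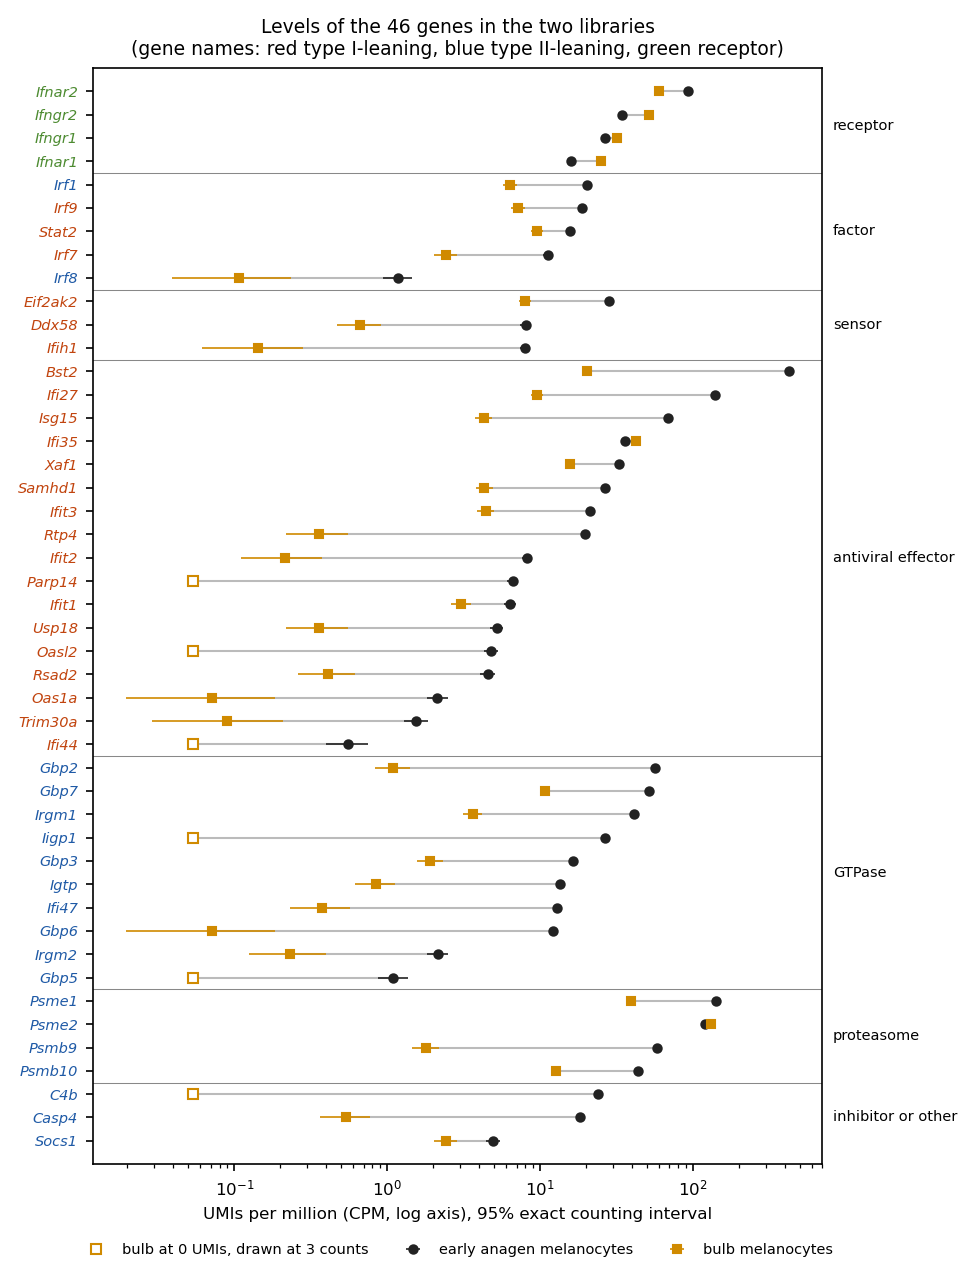
CPM on a log axis of each of the 46 genes in early anagen melanocytes (black circles) and bulb melanocytes (orange squares), by role, with 95% counting intervals. The 2 points of each receptor lie within 2-fold, those of 39 other genes lie farther apart, and 6 genes had no UMI in bulb (open squares, drawn at the level of 3 counts).

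All 4 receptor chains were measured in both libraries and stayed within 2-fold. *Ifngr1*, the chain that binds interferon gamma (chr10:19591949-19610229), was at 26.5 CPM in early anagen and 31.9 CPM in bulb, a log2 ratio of 0.27 (0.18 to 0.36). *Ifngr2*, its signalling partner, was at 34.5 and 51.7 CPM (0.58, 0.51 to 0.66). *Ifnar1* was at 16.0 and 25.0 CPM (0.64, 0.53 to 0.76), and *Ifnar2*, the other chain of the type I receptor, was the only one of the 4 lower in bulb, at 91.9 and 59.5 CPM (-0.63, -0.69 to -0.57). Receptor RNA was thus present in both libraries at levels whose differences were small beside those of the induced genes.

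Of the 5 transcription factors among the 46 genes, 4 were at least 2-fold lower in bulb. *Irf7*, which amplifies type I interferon production, was at 11.2 CPM in early anagen and 2.42 CPM in bulb (log2 ratio -2.21, -2.48 to -1.94). *Irf1*, an early target of interferon gamma that switches on many later genes (chr11:53770014-53778374), was at 20.3 and 6.32 CPM (-1.69, -1.86 to -1.52). *Irf9*, the DNA-binding part of the type I complex, was at 18.6 and 7.16 CPM (-1.38). Its partner *Stat2* lay within 2-fold, at 15.6 and 9.54 CPM (-0.71, -0.86 to -0.56). *Irf8*, best known from myeloid cells, was scarce in both, with 89 and 6 UMIs. The log2 ratio of *Irf8* was -3.45, close to the median of -3.46 over the 46 genes, and those of the other 4 factors lay between -2.21 and -0.71.

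All 3 RNA sensors were lower in bulb. *Ddx58*, which encodes RIG-I, was at 8.02 CPM in early anagen and 0.662 in bulb (log2 ratio -3.60, -4.12 to -3.12). *Ifih1*, which encodes MDA5, was at 7.96 and 0.143 CPM (-5.80, -7.02 to -4.81). *Eif2ak2*, which encodes the kinase PKR that shuts down translation, was nearer, at 28.2 and 7.96 CPM (-1.82).

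The antiviral effectors formed the biggest group, and 16 of 17 were at least 2-fold lower in bulb. *Bst2*, which encodes tetherin, the protein that holds budding virus at the cell surface (chr8:71534255-71537456), was at 420.5 CPM in early anagen and 20.3 CPM in bulb, a 20.8-fold difference (log2 ratio -4.38, -4.46 to -4.29). *Isg15*, a ubiquitin-like protein joined to other proteins in the response (chr4:156199424-156200818), was at 68.3 and 4.28 CPM (-4.00, -4.19 to -3.81). *Ifi27*, a small hydrophobic protein, was at 139.8 and 9.56 CPM (-3.87). These genes were measured with over 200 UMIs in each library, and their intervals were narrow.

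The *Ifit* genes, whose proteins bind foreign RNA caps and ends, lie close together on chromosome 19 and did not differ alike. *Ifit2* was at 8.21 CPM in early anagen and 0.215 in bulb (log2 ratio -5.26, -6.22 to -4.44). *Ifit3* was at 21.1 and 4.42 CPM (-2.25, -2.45 to -2.06). *Ifit1* was at 6.34 and 3.04 CPM (-1.06, -1.32 to -0.80), just past the 2-fold limit. *Ifit3* has a near copy, *Ifit3b*, listed with it in the files (5.30 and 1.59 CPM), and reads that fit both copies may be missing from each.

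Other effectors ranged widely. *Rtp4* and *Samhd1*, the latter a nucleotide-cutting enzyme that starves viruses, had log2 ratios of -5.78 (19.7 and 0.358 CPM) and -2.63 (26.6 and 4.31 CPM). *Rsad2*, which encodes viperin, was at 4.53 and 0.412 CPM (-3.46). *Usp18*, which removes Isg15 and damps type I signalling, was at 5.19 and 0.358 CPM (-3.86), and *Oas1a*, a sensor enzyme for double-stranded RNA, was at 2.13 and 0.0716 CPM (-4.89). *Trim30a* gave 117 and 5 UMIs. No UMI at all was counted in bulb for 3 effectors. Set at a floor of 3 counts in the whole bulb library, *Parp14* (499 UMIs in early anagen) was at least 123-fold lower in bulb, *Oasl2* (363 UMIs) at least 89.3-fold lower and *Ifi44* (42 UMIs) at least 10.3-fold lower. At the other end, *Xaf1*, a partner of the cell death inhibitor XIAP, was at 32.6 and 15.7 CPM (-1.06), and *Ifi35* was the effector slightly higher in bulb, at 35.6 and 42.2 CPM (0.25, 0.17 to 0.33).

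The interferon-inducible GTPases, which coat and break the vacuoles of intracellular microbes, were all 10 at least 2-fold lower in bulb, and together went from 233 CPM in early anagen to 18.9 CPM in bulb (log2 ratio -3.62, -3.71 to -3.53). Among guanylate-binding proteins, *Gbp2* (chr3:142620602-142638008) was at 56.5 and 1.09 CPM (-5.69, -6.08 to -5.33), and *Gbp6* was at 12.2 and 0.0716 CPM, with 922 and 4 UMIs (-7.41, -9.29 to -6.05). *Gbp3* was at 16.4 and 1.91 CPM (-3.10), and *Gbp7* was the nearest of the group, at 51.3 and 10.8 CPM (-2.25, -2.38 to -2.13). *Gbp5*, with 83 UMIs in early anagen and 0 in bulb, was at least 20.4-fold lower.

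The immunity-related GTPases were also far lower in bulb. *Iigp1* gave 1996 UMIs in early anagen and 0 in bulb, at least 491-fold lower. *Irgm1*, a regulator of the family, was at 40.8 and 3.63 CPM (log2 ratio -3.49, -3.70 to -3.28), *Ifi47* at 12.9 and 0.376 CPM (-5.10) and *Igtp* at 13.4 and 0.841 CPM (-3.99). *Irgm2* was at 2.14 and 0.233 CPM (-3.20). The annotated bodies of *Igtp* (chr11:58199556-58207591) and *Irgm2* (chr11:58199618-58222782) overlap on the same strand, so the split of reads between these 2 genes is uncertain.

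Genes of the immunoproteasome, the form of the proteasome that makes peptides for antigen display, split within themselves. *Psmb9*, which encodes an inducible catalytic subunit (chr17:34181987-34187764), was at 58.4 CPM in early anagen and 1.79 CPM in bulb (log2 ratio -5.03, -5.33 to -4.74). *Psmb10*, another inducible subunit, was at 43.3 and 12.6 CPM (-1.78). The 2 cap subunits of the PA28 activator lie close together on chromosome 14 and differed from one another. *Psme1* was at 140.2 and 39.2 CPM (-1.84, -1.91 to -1.77), and *Psme2* was at 120.05 and 131 CPM (0.13, 0.08 to 0.17). *Psme2* was the only member whose direction turned with the scaling, to -0.03 when mitochondrial, ribosomal protein and pigmentation genes were left out of the totals. Of the remaining members, *Casp4*, an inflammatory caspase, was at 18.3 and 0.537 CPM (-5.09), *Socs1*, the feedback inhibitor of Jak kinases, was at 4.93 and 2.42 CPM (-1.03, -1.32 to -0.74), and *C4b*, a complement component, gave 1809 UMIs in early anagen and 0 in bulb, at least 445-fold lower.

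The genes around these 46 in the pathway were looked at in a second list of 71 symbols, of which 66 were in the files. *Sting1* was found under its older symbol *Tmem173*, and *Mx1*, *Mx2*, *Oas1b* and *Cxcl11* were not analysed here. No UMI of any of 10 interferon genes, among them *Ifnb1*, *Ifna1*, *Ifnk* and *Ifng*, was found in the kept cells of either library. The exact upper bound for each was 0.0487 CPM in early anagen and 0.0660 CPM in bulb. Barcodes left out by the choice of cells were not counted here. Of the 43 genes past the limit of 20 UMIs, 32 were at least 2-fold lower in bulb, 7 within 2-fold and 4 at least 2-fold higher, beside 36.8% and 14.8% of all genes.

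In signalling, the kinases *Jak1* and *Jak2* were lower in bulb, at 100.1 CPM in early anagen and 41.9 CPM in bulb (log2 ratio -1.26, -1.32 to -1.19) and at 24.2 and 7.41 CPM (-1.71), while *Tyk2* was within 2-fold (0.46) and so was *Stat3* (0.54). *Socs3*, another feedback inhibitor, was level (38.6 and 39.7 CPM). The 4 genes higher in bulb were *Il10rb* (31.1 and 98.7 CPM), a receptor chain shared with interleukin 10, *Irf3* (13.7 and 38.7 CPM) and *Mavs* (5.15 and 13.1 CPM), which relay the RNA sensors, and *Irf5*, named after its values were seen, with 5 and 27 UMIs. The DNA sensor *Cgas* and its partner *Tmem173* were lower in bulb, with log2 ratios of -3.91 and -3.16.

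Among further induced genes 21 of 24 were lower in bulb and 0 higher. *Ifitm3*, a membrane protein that blocks virus entry, was at 303 and 9.45 CPM (-5.00, -5.13 to -4.88), and *Ifitm2* at 289.6 and 61.6 CPM (-2.23). *Psmb8*, the immunoproteasome subunit encoded beside *Psmb9*, was at 88.3 and 0.913 CPM (-6.60), and the peptide transporter *Tap1* at 31.4 and 3.60 CPM (-3.13). Chemokines that draw T cells were scarce or absent in bulb. *Cxcl10* was at 63.7 and 0.662 CPM (-6.59), and *Cxcl9*, known as a target of interferon gamma, gave 4179 UMIs in early anagen, up to 761 in 1 cell, and 0 in bulb.

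The share of cells in which a gene was seen was compared with every cell thinned to 5000 UMIs, so that depth was equal. *Bst2* was seen in 75.2% of cells in early anagen and 7.71% in bulb, *Psme1* in 48.2% and 16.9%, *Ifi27* in 40.4% and 3.91%, and *Isg15* in 18.4% and 1.23%. Most members were seen in few cells even in early anagen. The median share was 5.60% over type I-leaning and 8.65% over type II-leaning genes there, and 1.02% and 0.482% in bulb. *Gbp2* was seen in 11.1% and 0.268%, *C4b* in 12.5% of early anagen cells and in 0 of 3734 bulb cells (exact upper bound 0.0987% of cells with a UMI), and *Rsad2* in 1.01% and 0.214%. The receptor *Ifnar2* was seen in 39.1% and 26.1% and *Ifngr1* in 13.0% and 14.8%. Unthinned, with the deeper early anagen cells at their full depth, *Isg15* was seen in 43.8% and 2.46%.

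Free RNA in the droplets was gauged from 81 keratin-rich barcodes of the early anagen library (at least 10 *Krt10* plus *Krt14* UMIs and more of them than of *Dct*, median 34035 UMIs), at the same thinned depth. Keratinocytes can express these genes themselves, so this is no blank. *Dct*, which was part of both choices of cells, was at 614 CPM in these barcodes against 7799 in melanocytes, and was seen in 39.5% against 99.9%. Melanocyte RNA was thus present in them, and its source was not tested. *Bst2* was seen in 24.7% of keratin-rich barcodes against 75.2% of melanocytes, *Gbp2* in 2.47% against 11.1% and *C4b* in 1.23% against 12.5%. *Isg15* was nearer (13.6%, 6.98 to 23.0, against 18.4%), and its CPM was higher in the keratin-rich barcodes (78.6 against 68.3). *Ifi27* (59.3%), *Psmb9* (29.6%) and *Psme2* (46.9%) were seen in a larger share of keratin-rich barcodes than of melanocytes. For *Psme2* the interval of that share (35.7% to 58.3%) held the 42.5% of melanocytes, and *Psmb9* was lower there in CPM (47.5 against 58.4). For those 3 and *Isg15* this comparison cannot tell how much of the melanocyte share is free RNA. For the other genes the amount of free RNA was not measured either, as these barcodes are no blank. The bulb library held only 2 such barcodes, and no share was read from them.

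Within early anagen the members were spread unevenly over cells. At 10000 UMIs per cell, the variance over the mean (Fano factor) is near 1 for counts that differ only by sampling. It was above 1.5 for 32 of the 45 members with a mean of at least 0.01 UMIs, with a median of 1.93, while 8.13% of 11507 genes were above 1.5 and the median of all genes was 1.08. By class, 15 of 22 type I-leaning, 17 of 19 type II-leaning and 0 of 4 receptor genes were above 1.5. The highest were *Rsad2* (19.1), *Ifit1* (16.9), *Gbp2* (15.4), *Iigp1* (11.9) and *Ifit3* (11.2). A single early anagen cell held up to 122 *Gbp2*, 101 *Iigp1*, 81 *Ifit3* or 79 *Ifit1* UMIs at full depth. In bulb, at 10000 UMIs in 3288 cells, 5 of 25 members were above 1.5, beside 5.64% of 10376 genes. All 5 were type I-leaning, and the 2 highest were *Isg15* (3.86) and *Bst2* (2.75). The mean of 0.01 UMIs was reached in bulb by 12 of 23 type I-leaning and only 9 of 19 type II-leaning members. Type II-leaning *Gbp2* fell just short of it (mean 0.00912) with a Fano factor of 3.99. Type I-leaning *Rtp4* (3.66) and *Ifit2* (2.71) fell short too. The 5 genes therefore do not show that uneven spread in bulb was kept to 1 class.

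**Figure D3:**
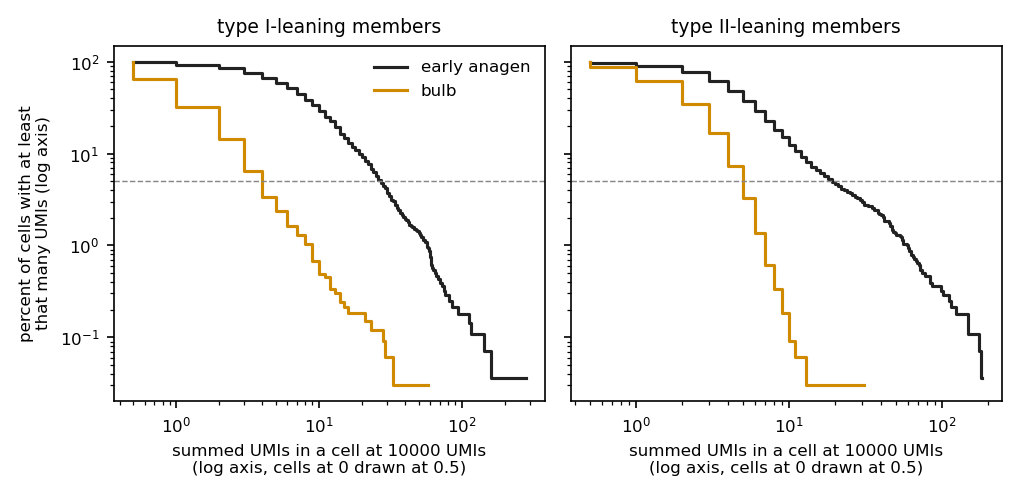
Percent of cells (log axis) with at least a given number of summed UMIs (log axis) of the 23 type I-leaning members (left) and 19 type II-leaning members (right), every cell thinned to 10000 UMIs, 2785 early anagen and 3288 bulb cells. The dashed line marks 5% of cells, and the early anagen curves run out to 281 and 184 UMIs, the bulb curves to 58 and 31.

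Summed per cell, type I-leaning UMIs had a median of 7, a 95th percentile of 27 and a highest value of 281 in early anagen, and a median of 1, a 95th percentile of 4 and a highest value of 58 in bulb. Type II-leaning sums had a median of 4, a 95th percentile of 19 and a highest value of 184 in early anagen, and 2, 5 and 31 in bulb. Nearly every early anagen cell thus held some member UMIs, and 1.72% held none of the type I-leaning ones against 36.0% in bulb. The 5% of early anagen cells with the most held 23.7% of all type I-leaning UMIs and 32.4% of type II-leaning UMIs. For a core of 10 genes that sit low at rest (*Ifit1*, *Ifit2*, *Ifit3*, *Isg15*, *Rsad2*, *Usp18*, *Oasl2*, *Oas1a*, *Ifi44* and *Irf7*), 59.9% of early anagen cells held none and the top 5% of cells held 57.4% of the UMIs. In bulb the top 5% held 26.7% of type I-leaning, 14.7% of type II-leaning and 83.4% of core UMIs, and 92.6% of cells held no core UMI.

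To see whether type I and type II patterns fell in the same cells, early anagen cells at or above the 95th percentile of one summed class were compared with the other cells for the other class. The 144 cells rich in type I-leaning members (27 UMIs or more) held type II-leaning members at 3158 CPM and the other 2641 cells at 565 CPM, a log2 ratio of 2.48 (2.43 to 2.53). The 147 cells rich in type II-leaning members (19 UMIs or more) held type I-leaning members at 3363 CPM and the others at 827 CPM (2.02, 1.98 to 2.07). Receptor genes did not go with either, with log2 ratios of 0.14 (-0.04 to 0.31) and 0.03 (-0.16 to 0.21). The 2 sets shared 66 cells, 45.8% of the first and 44.9% of the second, and 3.07% of the cells not rich in type I-leaning members were rich in type II-leaning ones. The cut is a point on a continuous range, and 32 and 30 cells lay within 1 UMI of it.

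Gene by gene, with each gene left out of the sum that chose its cells, 39 of 45 members were at least 2-fold higher in type I-rich cells, where 4.71% of 11922 genes were, and 40 of 45 in type II-rich cells, where 4.40% were. In type I-rich cells, 18 of 19 type II-leaning genes, which that choice did not use, were past 2-fold. They included *Gbp2* (572 CPM against 35.7, log2 ratio 4.00, 3.87 to 4.14), *Iigp1* (276 against 15.1, 4.19) and *Gbp5*, with 35 UMIs in the 144 cells and 3 in the others (7.74, 6.08 to 10.09). The exception was *Socs1* (0.74, -0.21 to 1.56). In type II-rich cells, *Ifit1* was at 101 CPM against 4.21 (4.58, 4.22 to 4.95), *Ifit3* at 239 against 15.9 (3.91), *Isg15* at 439 against 55.4 (2.99, 2.85 to 3.12) and *Rsad2* at 74.8 against 2.31 (5.02). Up to 79 *Ifit1* and 58 *Rsad2* UMIs lay in a single early anagen cell at full depth. Few cells may therefore carry the ratios of these genes, which was not tested. A smaller difference was seen for 2 genes with both sets. *Ifi27* had log2 ratios of 0.73 and 0.67, and *Bst2* 1.64 and 1.73.

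**Figure D4:**
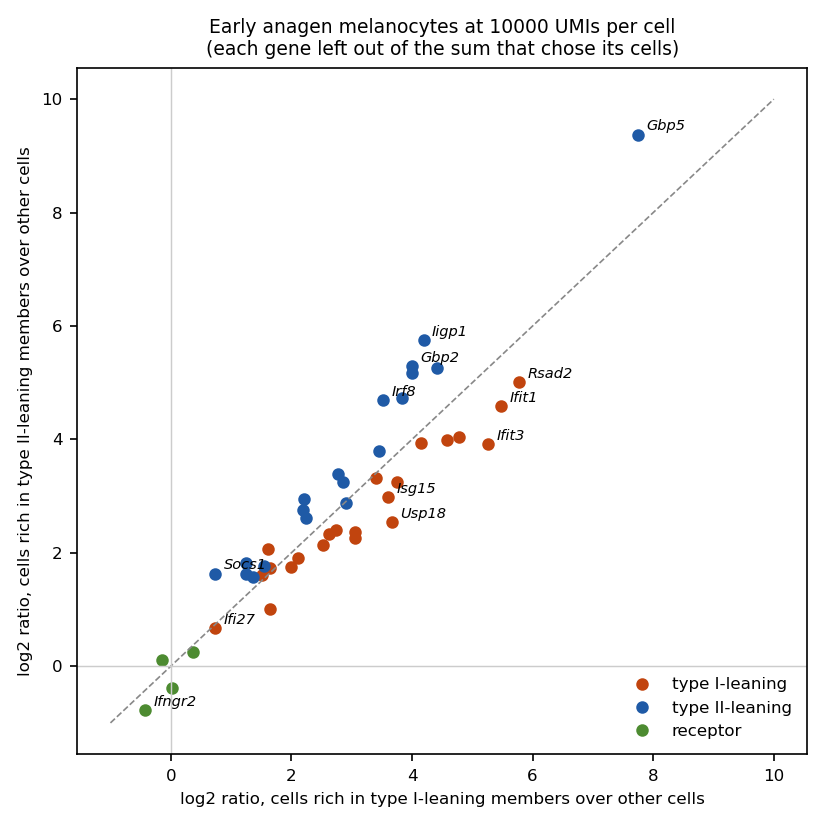
Log2 ratio of each member in early anagen cells rich in type I-leaning members over the other cells (x axis) and in cells rich in type II-leaning members over the others (y axis), at 10000 UMIs per cell, for the 45 members with at least 20 UMIs, 1 point a gene, with the dashed line at equality. Type II-leaning genes such as *Gbp2* (4.00, 5.29) and *Iigp1* (4.19, 5.75) lie above the line, and type I-leaning genes such as *Ifit3* (5.26, 3.91) and *Usp18* (3.66, 2.54) below it.

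The difference between the sets was one of degree. *Ifit3* was at 352 CPM in type I-rich cells and 239 CPM in type II-rich cells, *Usp18* at 50.4 and 29.3 CPM, and *Irf7* at 103 and 83.0 CPM. In the other direction, *Iigp1* was at 276 and 401 CPM, *Gbp2* at 572 and 844 CPM, *Psmb9* at 213 and 314 CPM and *Irf1* at 86.8 and 106 CPM. As before, each gene was left out of the sum of its own class, so its cells can differ from the 144 or 147. The 2 sets share cells, so these pairs were not tested. Outside the list, *Cxcl9* was at 789 CPM in type I-rich cells against 13.7 in the rest, and at 922 against 5.46 with the type II choice. *Cxcl10* was at 692 against 28.5 and at 737 against 25.2.

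The rich cells carried melanocyte genes, and the type II-rich ones had lower pigment gene RNA. The list of 8 melanocyte genes summed to 24307 CPM in type I-rich cells against 25598 in the rest, and to 19229 against 25883 CPM with the type II choice. In type II-rich cells *Dct* was at 6262 CPM against 8394 in the others and *Tyr*, the rate-limiting melanin enzyme, at 345 against 586 CPM. *Oca2*, a melanosome channel gene used here as a sign of pigment cell differentiation, was seen in 4 of 147 cells (2.72%, 0.746 to 6.82) against 10.9%. A UMI of *Mki67* or *Top2a*, taken here as a sign of the cell cycle, was seen in 37.4% against 35.6%. In type I-rich cells *Dct* was at 7925 against 8300 CPM, *Oca2* was seen in 6.25% against 10.7%, and the cell cycle pair in 22.2% (15.7 to 29.9) against 36.4%. The type I-rich cells had been shallower before thinning (median 20041.5 against 24697 UMIs).

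The immune list was higher in the rich cells, at 258.5 CPM in type II-rich cells against 21.9 and at 203 CPM in type I-rich cells against 25.1. Nearly all of it in both rich sets came from *Cd74* and *H2-Aa*, which were at 100 and 102 CPM in type I-rich cells. The rest of the list was not higher in the rich cells. A UMI of the list was seen in 38.1% of type II-rich and 20.1% of type I-rich cells, against 6.60% and 7.61% of the others. *Cd74* was at 118 CPM in type II-rich cells against 9.10 and *H2-Aa* at 137 against 8.19, while *Ptprc* was seen in 0 of 144 type I-rich and 0 of 147 type II-rich cells, shares whose exact upper bounds are 2.53% and 2.48%. Without cells holding a UMI of *Ptprc*, *Cd74*, *Tyrobp*, *Fcer1g* or *Laptm5*, 39 members were still at least 2-fold lower in bulb, and the log2 ratios of the summed classes were -2.70 and -1.50. Without the type I-rich cells of both libraries, 36 members were at least 2-fold lower, with -2.82 and -1.41. For the background of these counts, the range of the share of all genes lower over the alternatives is given at the end. The cells left out were chosen by the same type I-leaning UMIs, at each library's own 95th percentile (27 UMIs in early anagen, 4 in bulb). Taking off the upper end of each library in this way cannot tell how much the rich cells add to the difference, which was not tested. Of the 147 type II-rich early anagen cells, only 66 were among those removed, and leaving out the others was not tested. The stress list was at 3233 CPM in type I-rich cells against 2758 in the rest and at 3129 against 2763 with the type II choice, and the part of immune cells, depth or stress in these values was not tested.

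The count of members seen together in a cell, a measure added after the data were seen, differed between the libraries too. It rests on the same UMIs as the levels of these genes (core 132 and 15.2 CPM, GTPases 233 and 18.9 CPM), so it is not separate evidence of a difference. At 5000 UMIs, at least 3 of the 10 core genes were seen in 110 of 2785 early anagen cells (3.95%, 3.26 to 4.74) and in 11 of 3734 bulb cells (0.295%, 0.147 to 0.526). At least 3 of the 10 GTPases were seen in 198 early anagen cells (7.11%, 6.18 to 8.13) and 1 bulb cell (0.0268%). In early anagen 56 cells passed both limits, 54 the core limit alone and 142 the GTPase limit alone. In bulb these were 1, 10 and 0 cells. Cells with core genes and few GTPase UMIs were thus seen in both libraries, and cells with GTPases but few core genes were seen in bulb in 0 of 3734 cells at this depth and in 1 of 3288 at 10000 UMIs. In bulb, *Gbp7* alone gave 601 of the 1057 GTPase UMIs. A bulb cell with 3 different GTPases was therefore unlikely to be seen, whatever its core genes.

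In bulb, the cells with the most type I-leaning UMIs were compared with the rest in the same way. The whole sum chose 214 cells at or above the 95th percentile (only 4 UMIs, and 396 cells lay within 1 UMI of it). For each type I-leaning gene the cells were chosen again without that gene, so they can differ from the 214. In cells chosen this way *Isg15* was at 40.2 CPM against 1.78 (log2 ratio 4.50, 3.98 to 5.02) and *Ifit3* at 34.8 against 2.30 (3.92, 3.42 to 4.41). *Irf7* was at 15.9 against 1.30 (3.62), and *Usp18* had 10 UMIs in its chosen cells and 3 in all others (5.59, 3.63 to 8.09). Of 28 members with enough UMIs, 14 were at least 2-fold higher in their chosen cells, beside 2.91% of 10955 genes. In the 214 cells the summed type II-leaning genes were at 320.1 CPM against 208 in the rest (0.63, 0.51 to 0.74). *Gbp2* was at 6.07 against 0.553 CPM there (3.46, 2.29 to 4.59) and *Psmb9* at 6.07 against 1.53 (1.99). With the cells chosen by type II-leaning genes instead, 10 of 28 members were higher, beside 2.75% of all genes. The 2 choices shared 44 cells, 20.6% of the first and 18.3% of the second, and 6.38% of the bulb cells not rich in type I-leaning members were rich in type II-leaning ones. *Ifit1* reached 18 UMIs and *Gbp2* 19 UMIs in a single bulb cell at full depth. A list of 6 keratin genes summed to 66.8 CPM in the type I-rich bulb cells against 46.7 in the rest, and to 96.7 against 44.2 with the type II choice. A UMI of it was seen in 17.8% against 16.1% and in 19.6% against 16.0% of cells. Over all kept bulb cells *Ifi35*, which was not lower in bulb, gave 2360 of the 7440 type I-leaning UMIs. The part of either in these values was not tested.

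Within early anagen, members were also compared between the 292 cells with an *Oca2* UMI at 10000 UMIs and the 2493 without. None of 45 members was at least 2-fold higher with *Oca2*, beside 3.04% of 11922 genes, and 13 were at least 2-fold lower, beside 5.75%. Of the 13, 9 were type II-leaning and 7 were GTPases. The GTPases together were at 104 CPM with *Oca2* and 269.6 CPM without (log2 ratio -1.38, -1.55 to -1.21). *Iigp1* was at 4.11 against 31.4 CPM (-2.93, -3.89 to -2.12) and *Gbp2* at 12.3 against 69.4 CPM (-2.49, -3.01 to -2.02). The whole type II-leaning sum was at 415 against 732 CPM (-0.82, -0.90 to -0.73). The type I-leaning sum differed less, at 862 against 973 CPM (-0.18, -0.23 to -0.12), and *Bst2* (404 and 443 CPM) and *Ifi27* (160.3 and 149 CPM) were nearly level. These 2 genes gave 1179 and 468 of the 2516 type I-leaning UMIs in cells with *Oca2*. The core of 10 type I-leaning genes was at 106 against 161 CPM (-0.60, -0.77 to -0.43). At 104 CPM the GTPases in *Oca2*-positive early anagen cells were still above the 18.5 CPM of the 3140 bulb cells with *Oca2*.

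**Figure D5:**
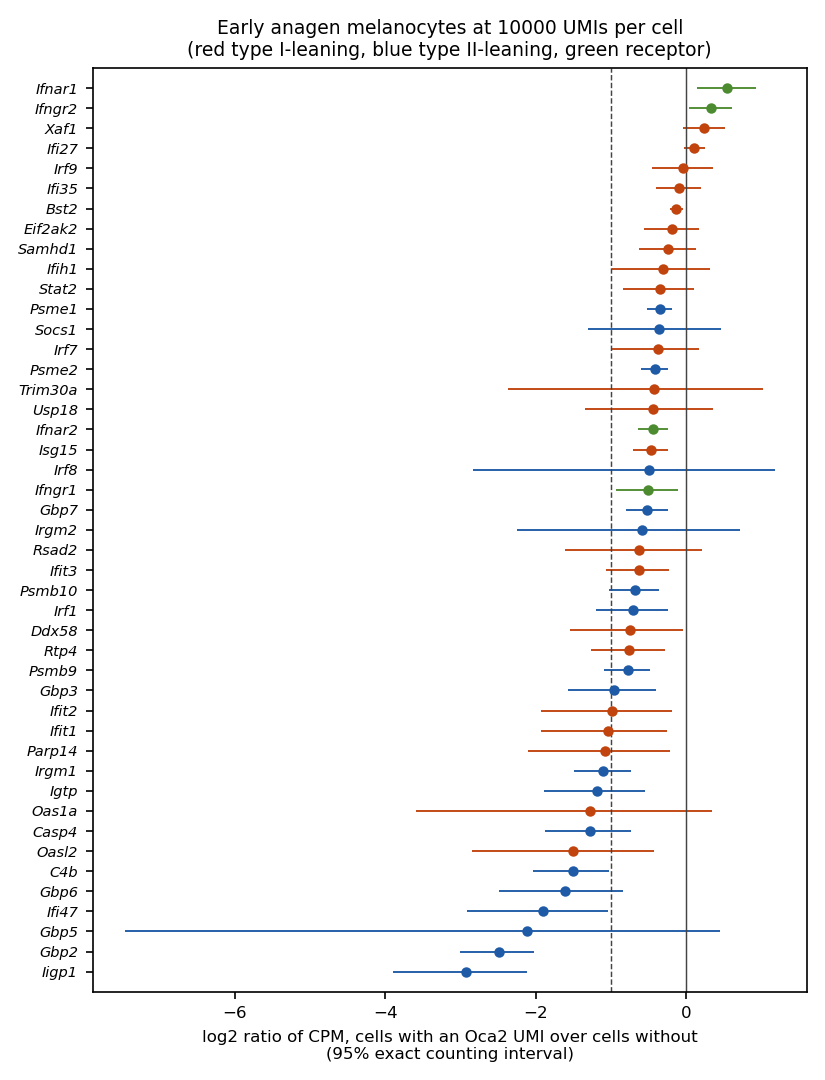
Log2 ratio of CPM in early anagen cells with an *Oca2* UMI over those without, with 95% counting intervals, for 45 members, 1 point a gene. Type II-leaning genes fill most of the lower end, led by *Iigp1* (-2.93) and *Gbp2* (-2.49), while *Ifnar1* (0.54) and *Ifngr2* (0.32) are at the upper end.

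With a UMI of *Mki67* or *Top2a* (993 cells, against 1792 without), 5 of 45 members were at least 2-fold lower, beside 2.67% of all genes, and the type I-leaning and type II-leaning sums had log2 ratios of -0.29 (-0.33 to -0.25) and -0.18 (-0.23 to -0.14). The sums were 841 against 1028 CPM and 643 against 730 CPM, so members were measured in cells with and without these UMIs. These splits compare cells of 1 library, pooled from 4 mice that the files do not tell apart, so a difference between mice is not separated from one between kinds of cell.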

How the data were processed

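The deposited matrices hold UMI counts per gene and barcode, which the authors made with Cell Ranger 6.0.1 on the mm10 reference and deposited as filtered matrices without cell annotation. The authors' stated limits on UMIs and mitochondrial share were applied first, then the *Dct* and keratin limits. No doublet caller was run, and instead the 5% of cells with the most UMIs were left out as an alternative. Each gene's UMIs were summed over the kept cells of a library (75718468 in early anagen, 55883067 in bulb) and divided by that total to give CPM. UMIs count 3′ ends and were not scaled by gene length, so levels are compared between libraries and not between genes.

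With 1 library per condition, no p-value was computed. Ratios are given with exact 95% intervals for a pair of Poisson counts. A call needs a 2-fold difference and at least 20 UMIs over both libraries. Genes at 0 were set at a floor of 3 counts over the library. For shares of cells, each cell was thinned without replacement to 5000 UMIs. For spread and splits within a library each cell was thinned to 10000 UMIs, which left out 446 shallower bulb cells. Scripts used Python 3.11.15, numpy 2.4.6, scipy 1.17.1, R 4.3.3 and edgeR 4.0.16 (TMM scaling only, as an alternative), and the ratio and its interval were tested on simulated data. Promoters came from RefSeq (GRCm38.p6) and gene positions from GENCODE on GRCm38, both 1-based. Reads that fit near copies (such as *Ifit3* and *Ifit3b*, or *Gbp2* and *Gbp2b*) may be missing from both.

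All 46 members were named with values, as were genes of the wider pathway list with at least 100 UMIs or at 0, and marker genes, except 1 gene of the wider list that is not reported here. The members, lists and cuts were chosen with earlier results of these data known. The telogen cells of the study were not analysed here.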

Additional observations from a re-analysis of the deposited data

Results flagged for a closer look

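The 81 keratin-rich barcodes of the early anagen library, which are not among the melanocytes compared, also held the members. Their type I-leaning genes summed to 556 CPM (95% counting interval 531 to 583) and their type II-leaning genes to 562 CPM (536 to 589), against 894 and 664 CPM in the melanocytes of the same library. Member by member they differed, with *Bst2* at 103 CPM against 420.5 in melanocytes, *Gbp2* at 7.38 against 56.5 and *C4b* at 4.49 against 23.9, while *Isg15* was at 78.6 against 68.3, *Ifi27* at 168 against 139.8 and *Psme2* at 189.9 against 120.05. How much of the melanocyte values comes from free RNA was not tested.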

How the results depend on the processing

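In each of 15 alternatives 35 to 39 members were called lower in bulb and 0 higher, beside 26.3% to 40.3% of all genes lower. The limit for a call was 2-fold, except in the alternative with a 3-fold limit, which gave the lowest count, 35. A count of 36 came with TMM scaling, a minimum of 100 UMIs, or without type I-rich cells. With the minimum of 100 UMIs, *Irf8*, *Gbp5* and *Ifi44*, all lower in the main comparison, were too scarce to be called. With TMM scaling *Ifit1*, *Xaf1* and *Socs1* came within 2-fold. Over the 46 members under 12 alternatives for levels, 399 values stayed inside the main counting interval and 153 did not, and 1 changed sign, *Psme2*, from 0.13 to -0.03. TMM scaling moved the median of all genes from -0.45 to -0.14 and the reduced total (without mitochondrial, ribosomal protein and pigmentation genes) moved it to -0.61.

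For the summed type I-leaning and type II-leaning genes (-2.75 and -1.64), log2 ratios were -2.80 and -1.69 with no minimum of UMIs, -2.70 and -1.50 without immune-marker cells, -2.82 and -1.41 without type I-rich cells, -2.84 and -1.73 thinned to 5000 UMIs, -2.83 and -1.70 as mean CPM of cells, -2.43 and -1.33 with TMM and -2.91 and -1.80 with the reduced total. The receptor sum (-0.01) was 0.31 with TMM and -0.17 with the reduced total.

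The share of cells with a core UMI (27.5% and 4.82%, early anagen and bulb) was 60.5% and 10.6% unthinned and 40.1% and 7.36% at 10000 UMIs. The share of type I-leaning UMIs in the top 5% of cells (23.7% and 26.7%) was 24.5% and 30.8% at 5000 UMIs, 29.2% without *Bst2* in early anagen and 34.1% without *Ifi35* in bulb. That of type II-leaning UMIs was 37.3% without *Psme1* in early anagen, and in bulb 18.3% at 5000 UMIs and 22.0% without *Psme2*. Type II-leaning genes in type I-rich cells (2.48 and 0.63) were at 2.04 and 0.42 with the 90th percentile, 3.13 and 1.32 with the 99th, and 2.05 and 0.49 with the core genes. With at least 2 *Oca2* UMIs the log2 ratios were -0.25 and -0.99, and the type II-leaning ratio by cell cycle was -0.11 unthinned. The causes of these shifts were not tested.

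No paired analysis was possible because each condition was 1 library, and for the same reason no replicate was left out. A planned split of cells by *Xist* and Y-linked UMIs was not run in early anagen, where 0 cells held an *Xist* UMI, and in bulb 1 cell held *Xist* alone. Counts of 0 in bulb limit those 6 genes to bounds.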
